A study of Mus musculus with 22 samples.

Results

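The genes described here encode the aminoacyl-tRNA synthetases, measured in mouse embryonic fibroblasts (MEFs), cells grown out of whole embryos. Members were taken by name: every annotated symbol made of 1 letter, "ars" and an optional 1 or 2, together with Eprs, Farsa and Farsb. This gave 35 of the 18193 genes on the array, 19 cytosolic enzymes and 16 mitochondrial ones, the latter being those whose symbol ends in 2. The cytosolic members were Aars, Cars, Eprs, Farsa, Farsb, Gars, Hars, Iars, Kars, Lars, Mars1, Nars, Qars, Rars, Sars, Tars, Vars, Wars and Yars. The mitochondrial members were Aars2, Cars2, Ears2, Fars2, Hars2, Iars2, Lars2, Mars2, Nars2, Pars2, Rars2, Sars2, Tars2, Vars2, Wars2 and Yars2.

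The 22 Affymetrix mouse arrays fell into 4 groups, all with RNA taken 7 days after infection with an adenovirus. Control MEFs (5 arrays) were labelled wild type and received a virus carrying GFP. Oncogene MEFs (5 arrays) carried a mutant oncogene allele that Cre switches on and received a Cre virus. Wt1-null MEFs (5 arrays) had lost Wt1, which encodes a zinc-finger transcription factor. For Wt1-null replicates 1 and 2 the labels give floxed alleles of Wt1 and a Cre virus, and for replicates 3 to 5 they give only the null genotype. Double MEFs (7 arrays) had the oncogene switched on and Wt1 deleted by a Cre virus. Where the labels name Cre, comparisons with control therefore also compare a Cre with a GFP virus, and these effects cannot be told apart. For Wt1-null replicates 3 to 5 the virus is not named, so this is not known for them. The arrays also fall into 3 sets of accession numbers, taken up at the end. Double and Wt1-null arrays share no set, so from these arrays alone set and group cannot be told apart. For Wt1-null against control, set and group largely coincide, as only 1 control array shares a set with Wt1-null arrays. The labels do not say if replicates are separate embryos or cultures, so a p-value here weighs a difference against array-to-array spread, which may be technical. In bulk RNA, fewer cells of a type and less RNA per cell cannot be told apart.

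An aminoacyl-tRNA synthetase attaches an amino acid to its tRNA, the step that sets the meaning of each codon. The nucleus encodes separate enzymes for the cytosol and the mitochondrion in most cases, while some, such as Gars and Kars, serve both compartments from 1 gene. Several cytosolic enzymes sit in a multi-synthetase complex with the scaffold proteins Aimp1, Aimp2 and Eef1e1, and many cytosolic synthetase genes are known targets of ATF4, the transcription factor of the amino acid response. ATF4 acts with C/EBP proteins at elements whose core is written TGATGNAA.

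Promoter sequences, 250 bases before and 50 after each gene start, came from RefSeq on the build GRCm38.p6. They were searched for 26 of the 35 members, 12 cytosolic and 14 mitochondrial. Hars, Hars2, Lars and Nars were left out because of their place in the genome, so motifs in their promoters were not looked for. The motif counts of members therefore cover part of the family, while the shares of all promoters were taken without this cut. TGATGNAA, searched on both strands, occurred in 5 of the 12 cytosolic and 0 of the 14 mitochondrial promoters, and in 3.97% of all 32851 promoters of that length. Those 5 were Aars, Gars, Iars, Tars and Yars, and each was among the 10 members found lower in double MEFs below. Of those 10 members, 7 had a promoter among those searched and 5 of the 7 held the motif, while Eprs and Sars held none in this window. Cars, Lars and Nars were not among those searched, so 5 of 7 is not a count over all 10. For each of the 5 genes the 30-base stretch around the match nearest the start is shown because these stretches set the 5 cytosolic genes beside the mitochondrial genes. They read along the gene strand, and capitals mark the TGATGNAA core or its reverse complement.

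Aars: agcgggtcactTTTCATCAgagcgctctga
Gars: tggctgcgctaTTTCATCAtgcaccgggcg
Iars: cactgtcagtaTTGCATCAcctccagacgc
Tars: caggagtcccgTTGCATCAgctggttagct
Yars: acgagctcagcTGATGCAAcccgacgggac

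The Aars stretch lies at chr8:111033840-111033869 on the plus strand, with the core starting at position 10 from the gene start. The Gars stretch lies at chr6:55037960-55037989 (plus strand, position -30) and the Tars stretch at chr15:11399655-11399684 (minus strand, position -15). The Iars stretch lies at chr13:49682126-49682155 (plus strand, position 8) and the Yars stretch at chr4:129189895-129189924 (plus strand, position 4).

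The E-box CACGTG occurred in 4 of the 12 cytosolic promoters (Aars, Farsb, Iars and Tars), in 1 of the 14 mitochondrial promoters (Ears2) and in 7.15% of all promoters. The ETS motif CCGGAAGT occurred in 2 cytosolic promoters (Farsa and Mars1), in 1 mitochondrial promoter (Rars2) and in 3.89% of all promoters. The palindromic NRF1 motif occurred in none of the 26 promoters and in 0.971% of all promoters. No match of one motif overlapped a match of another in these promoters. A match describes the letters only, and binding was not measured.

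Some arrays stood apart from the others of their group. The fibroblast marker list had a mean log2 level of 12.35 to 13.72 in every array, against 6.04 to 7.39 for epithelial, 5.23 to 5.91 for endothelial, 5.45 to 6.00 for blood, 5.88 to 6.58 for muscle and 6.16 to 7.63 for neural markers. Of the fibroblast markers, limma called Pdgfra higher in oncogene and double arrays (1.97 and 1.78) and Fn1 higher in double arrays (0.91). Of the markers of other cell types, it called the endothelial Tek (1.29) and the macrophage marker Cd68 (0.80) higher in double arrays. The log2 level of Tek was 5.06 to 5.84 in control and 6.20 to 8.13 in double arrays, and that of Cd68 was 5.77 to 6.41 and 6.37 to 7.39. The part of these markers in the results was not tested. The Wt1 probe set lay at 4.16 to 4.77 in all groups, near the 14.1st percentile of probe sets, and its level in Wt1-null arrays (4.47 ± 0.15, SD, n = 5) overlapped that in control arrays (4.38 ± 0.10, SD, n = 5). It therefore gives no check of the Wt1-null label. Over all genes, the mean correlation of oncogene replicate 4 with the other arrays was 0.963 and that of double replicate 4 was 0.940, below those of every other array. Their 3′ probe sets for the pyruvate carboxylase control exceeded the 5′ ones by 2.73 and 2.97 on the log2 scale, more than in any other array. Wt1-null replicate 1 was closest to control replicate 2 (correlation 0.990), and double replicate 1 to control replicate 3 (0.984). Wt1-null replicate 2 and double replicate 2 differed by an SD of 0.152 on the log2 scale over all genes, less than any other pair of arrays, and Wt1-null replicates 3 and 4 by 0.162. The labels list these as separate samples of their groups, and shared RNA or an exchanged label was not tested. Either would change what the 5 Wt1-null arrays count for and what the comparison of double with Wt1-null arrays means. Results that rest on these arrays are given with and without them.

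The mean level of the cytosolic synthetases lay below control in the oncogene, Wt1-null and double groups, and that of the mitochondrial synthetases stayed nearer to control. For each array, the log2 levels of the 19 cytosolic members were averaged relative to the control mean of each gene. This mean was -0.15 to 0.16 in control arrays. In oncogene arrays it was -0.58, -0.39, -0.39, -0.64 and -0.68 in replicates 1, 3, 4, 5 and 6. In Wt1-null arrays it was -0.10, -0.72, -0.35, -0.34 and -0.79 in replicates 1 to 5. In double arrays the lowest was -0.92, the median -0.61 and the highest -0.28. All oncogene and double arrays lay below all control arrays, whereas Wt1-null replicate 1 lay within the control range. Counted gene by gene, 11 to 17 of the 19 cytosolic members were below their lowest control array in single oncogene arrays, 7 to 16 in Wt1-null and 10 to 18 in double arrays, with the 7 in Wt1-null replicate 1 and the 10 in double replicate 4. Of all genes, 23.2% to 28.9% were below their lowest control array in single oncogene arrays, 21.6% to 32.3% in Wt1-null and 17.5% to 32.4% in double arrays. Above their highest control array were 0 to 3 cytosolic members in oncogene, 0 to 1 in Wt1-null and 0 to 6 in double arrays, the 6 in double replicate 4, where 43.6% of all genes were above.

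The same mean over the 16 mitochondrial members was -0.04 to 0.04 in control arrays. It ran from -0.20 to 0.15 in oncogene arrays, from -0.25 to -0.12 in Wt1-null arrays and from -0.25 to 0.15 in double arrays. Only the Wt1-null arrays all lay below the control range, with 8 to 11 of the 16 members below their lowest control array, against 3 to 7 in oncogene and 0 to 9 in double arrays. Above their highest control array were 0 to 7 mitochondrial members in oncogene, 0 to 4 in Wt1-null and 0 to 7 in double arrays, the 7 in oncogene replicate 4, double replicate 1 and double replicate 4, against 14.9% to 43.6% of all genes over the 17 arrays of these groups. Subtracting the mitochondrial from the cytosolic mean gave -0.49 ± 0.05 (SD, n = 5) in oncogene arrays and -0.53 ± 0.12 (SD, n = 7) in double arrays, with every array at -0.40 or below. Wt1-null arrays spread from -0.53 to 0.07, and control arrays from -0.13 to 0.14. The sets also differ in brightness, the cytosolic probe sets lying at the 84.7th to 97.6th percentile of all probe sets and the mitochondrial ones at the 37.9th to 87.1st. The part of brightness in the difference between the sets was not tested, and that difference was given no test.

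**Figure D1:**
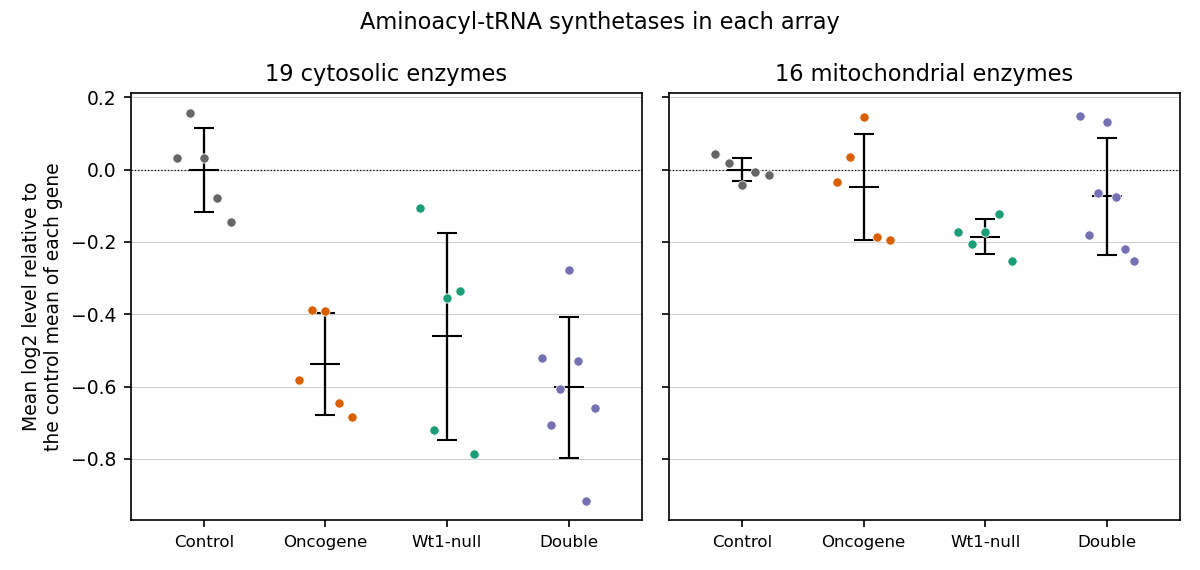
Mean log2 level of the 19 cytosolic (left) and 16 mitochondrial (right) synthetases in each array, relative to each gene's control mean; points are arrays, the bar is the group mean and whiskers are 1 SD. Every oncogene and double array lies below the control arrays on the left, with 1 Wt1-null array at -0.10. On the right the groups overlap, except that the Wt1-null arrays, at -0.25 to -0.12, all lie below the control arrays.

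Gene by gene, levels were compared by limma over all 18193 genes, and a gene is called when its Benjamini-Hochberg adjusted p is below 0.05. In oncogene against control arrays 4 of the 35 members were called, all lower and all cytosolic (Eprs, Sars, Aars and Cars), where 2.04% of all genes were called and 0.72% of all genes were called lower. Below control lay 18 of the 19 cytosolic members, with a median difference of -0.53, and 9 of the 16 mitochondrial members, with a median of -0.05. The median over all genes was -0.03, and 56.2% of all genes lay below control. Oncogene and control arrays did not overlap for 9 members, all cytosolic and lower (Aars, Cars, Eprs, Gars, Mars1, Nars, Sars, Tars and Yars), against 2.81% of all genes that were lower without overlap.

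In double against control arrays 10 members were called, all lower and all cytosolic: Eprs, Lars, Aars, Cars, Sars, Tars, Yars, Nars, Iars and Gars. Of all genes 5.93% were called, 2.45% of all being lower. The median difference was -0.68 over the cytosolic members, 18 of 19 of which lay below control, and -0.06 over the mitochondrial members, 11 of 16 of which did, against -0.02 over all genes, 54.6% of which lay below control. Arrays did not overlap for 8 members (Aars, Cars, Eprs, Iars, Lars, Nars, Sars and Tars), all lower, where 1.79% of all genes were lower without overlap.

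In Wt1-null against control arrays limma called 0 members, where it called 0.104% of all genes. At an unadjusted p below 0.05 there were 13 members, all lower, 8 cytosolic and 5 mitochondrial, against 12.7% of all genes in either direction and 8.5% lower. The median difference was -0.44 over cytosolic and -0.27 over mitochondrial members, against -0.05 over all genes. Below control lay 17 of 19 cytosolic and 12 of 16 mitochondrial members, and 59.7% of all genes. Arrays did not overlap for 11 members, all lower, where 4.19% of all genes were lower without overlap. Of these 11, 6 were cytosolic (Aars, Eprs, Mars1, Sars, Vars and Yars) and 5 mitochondrial (Aars2, Cars2, Pars2, Sars2 and Tars2).

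These counts moved with the arrays that stood apart. Without oncogene replicate 4 and double replicate 4, 8 members were called in oncogene against control (Aars, Cars, Eprs, Gars, Mars1, Sars, Tars and Yars), where 3.62% of all genes were called. In double against control 15 were then called, 13 cytosolic and 2 mitochondrial (Cars2 and Ears2), with 10.1% of all genes, and in Wt1-null against control 4 (Aars, Eprs, Mars1 and Sars), with 0.434%. All were lower. The Wt1-null count was 3 (Aars, Eprs and Sars) without Wt1-null replicate 1 alone, 3 (the same 3 names) without double replicate 4 alone and 2 (Eprs and Sars) without double replicate 1 alone, with 0.225%, 0.231% and 0.665% of all genes called. The oncogene count was 2 without control replicate 2, control replicate 3 or oncogene replicate 5, with 0.797%, 0.764% and 0.973% of all genes called, and 8 without double replicate 4, with 3.75%. With Wt1-null replicates 3 and 4 averaged into 1 array, the oncogene, Wt1-null and double counts were 4, 0 and 9, with 1.65%, 0.0165% and 5.29% of all genes called, Gars being the call lost. An array of any group enters every comparison through the spread that all groups share.

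**Figure D2:**
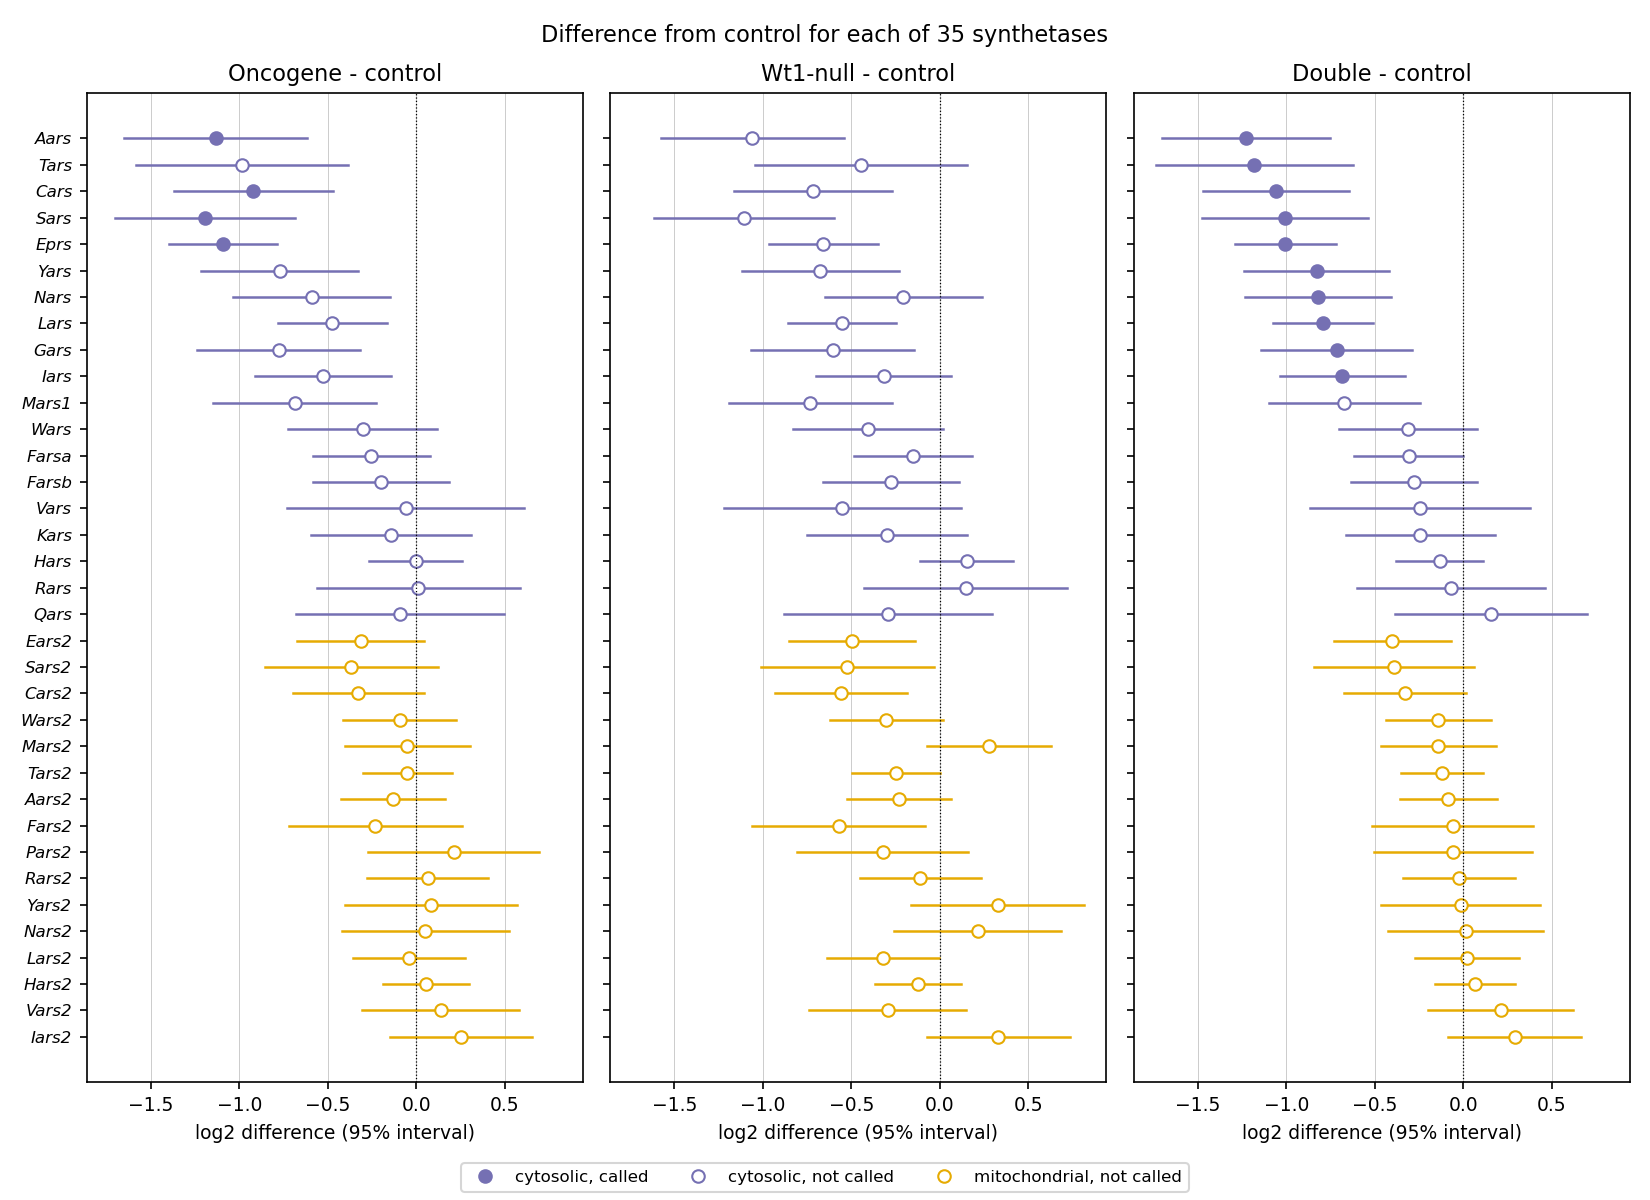
Difference from control of each of the 35 synthetases on the log2 scale with its 95% interval, for oncogene (left), Wt1-null (middle) and double MEFs (right), ordered within each compartment by the double difference. Filled points, 4 on the left, 0 in the middle and 10 on the right, are called by limma and all are cytosolic; mitochondrial points lie around 0 on the left and right and mostly below it in the middle.

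Eprs, which charges both glutamate and proline tRNAs and belongs to the complex, showed the smallest adjusted p of the family. Its log2 level was 11.64, 11.84, 11.81, 11.75 and 11.91 in control replicates 1 to 5 and 10.86, 10.44, 10.57, 10.69 and 10.92 in oncogene replicates 1, 3, 4, 5 and 6. In Wt1-null replicates 1 to 5 it was 11.53, 11.04, 11.03, 11.10 and 10.95, and in double arrays it ran from 10.23 to 11.08 with a median of 10.95. No array of the other groups reached the lowest control array, and Wt1-null replicate 1 came closest. The fall against control was -1.09 ± 0.15 (SE) in oncogene arrays, a ratio of 0.469 (limma, adjusted p = 0.000683), and -1.01 ± 0.14 in double arrays (adjusted p = 0.000318). In Wt1-null arrays the difference was -0.66 ± 0.15 and was not called (adjusted p = 0.101).

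Lars and Iars, the leucine and isoleucine enzymes, also belong to the complex. Lars is known as a leucine sensor for mTORC1. Lars was at 11.70, 11.67, 11.51, 11.24 and 11.56 in control arrays, against 10.46 to 11.08 (median 10.65) in double arrays, with no overlap. Oncogene replicates 1, 3, 4, 5 and 6 were at 11.23, 11.36, 10.70, 11.05 and 10.97 and Wt1-null replicates 1 to 5 at 11.29, 10.77, 11.05, 11.13 and 10.68, each group with 1 array past the lowest control array. Lars fell by 0.79 ± 0.14 in double arrays (limma, adjusted p = 0.00207). Its oncogene and Wt1-null differences were not called, at -0.47 and -0.55 (adjusted p = 0.104 and 0.165). Iars was at 12.03, 12.02, 11.76, 11.75 and 11.76 in control arrays and 10.67 to 11.63 (median 11.28) in double arrays, again apart. It was at 11.09, 11.76, 11.30, 11.34 and 11.18 in oncogene replicates 1, 3, 4, 5 and 6 and at 11.99, 11.11, 11.71, 11.75 and 11.17 in Wt1-null replicates 1 to 5, both overlapping control. Iars fell by 0.68 ± 0.17 (adjusted p = 0.0195), a call lost without control replicate 2 (adjusted p = 0.0604).

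The other 4 measured complex members were Mars1, Qars, Kars and Rars, for methionine, glutamine, lysine and arginine. None was called. Mars1 lay at -0.69 (oncogene), -0.73 (Wt1-null) and -0.67 (double) relative to control, with an adjusted p of 0.116, 0.212 and 0.0553. In control arrays Mars1 was at 11.79 to 12.09, and double replicate 4, at 12.30, was the only array of the other groups above that range. Qars, Kars and Rars differed from control by -0.30 to 0.16 in the 3 comparisons, with adjusted p of 0.556 or more. The 3 scaffold genes Aimp1, Aimp2 and Eef1e1 were not called either, with differences between -0.34 and 0.48.

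Outside the complex, 3 members were called in oncogene and 7 in double arrays out of 12, against 1 and 3 of the 7 in the complex. Aars, the alanine enzyme, had the tightest control values of the 10 called members, 12.81, 12.79, 12.76, 12.74 and 12.75. Oncogene replicates 1, 3, 4, 5 and 6 were at 11.49, 11.60, 12.17, 11.42 and 11.51, and Wt1-null replicates 1 to 5 at 12.53, 11.35, 11.70, 11.66 and 11.32. Double arrays ran from 11.07 to 12.68 with a median of 11.37. Every array of the other 3 groups was below every control array, with oncogene replicate 4, Wt1-null replicate 1 and double replicate 4 nearest to them.

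Aars fell by 1.13 ± 0.25 in oncogene arrays (limma, adjusted p = 0.0197) and by 1.23 ± 0.23 in double arrays (adjusted p = 0.00343). In Wt1-null arrays it differed by -1.06 ± 0.25 (adjusted p = 0.123). The oncogene call was lost without control replicate 2, control replicate 3 or oncogene replicate 5, with an adjusted p of 0.0532, 0.0516 and 0.058. Without Wt1-null replicate 1 the Wt1-null difference was -1.26 and was called (adjusted p = 0.0224).

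Sars, the serine enzyme, was at 12.45, 12.80, 12.89, 12.64 and 12.51 in control and at 11.64, 11.56, 11.84, 10.98 and 11.30 in oncogene replicates 1, 3, 4, 5 and 6. In Wt1-null replicates 1 to 5 it was 12.44, 11.60, 11.41, 11.37 and 10.93. Double arrays ran from 11.15 to 12.28 with a median of 11.67. Control arrays stood above all others, though Wt1-null replicate 1 was just below the lowest of them. Sars fell by 1.19 ± 0.24 in oncogene arrays (limma, adjusted p = 0.0136) and by 1.01 ± 0.23 in double arrays (adjusted p = 0.0115). The Wt1-null difference of -1.11 ± 0.24 was not called (adjusted p = 0.0952), and it was called without Wt1-null replicate 1 (-1.33, adjusted p = 0.00854), without double replicate 1 (adjusted p = 0.0389) or without double replicate 4 (adjusted p = 0.0485).

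Cars, the cysteine enzyme, was at 10.58, 10.55, 10.37, 10.35 and 10.05 in control and at 9.40, 9.74, 9.52, 9.19 and 9.44 in oncogene replicates 1, 3, 4, 5 and 6. It ran from 8.89 to 10.04 with a median of 9.18 in double arrays, where replicate 4 alone was above 9.54. Neither group overlapped control. Cars fell by 0.92 ± 0.22 in oncogene arrays (limma, adjusted p = 0.0279) and by 1.06 ± 0.20 in double arrays (adjusted p = 0.00361). The oncogene call was the least stable of the 4: it was lost when any of control replicates 1 to 4 or oncogene replicate 5 or 6 was left out, with an adjusted p of 0.0536 to 0.0865. In Wt1-null replicates 1 to 5 Cars was at 10.33, 9.16, 9.84, 9.85 and 9.12, with replicate 1 inside the control range, and the difference was -0.72 (adjusted p = 0.21).

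Tars, for threonine, had its lowest values in the arrays that stood apart. Control arrays were at 11.81, 11.55, 11.31, 11.33 and 11.40. Oncogene replicates 1, 3, 4, 5 and 6 were at 10.99, 10.95, 9.43, 10.58 and 10.53, and double arrays ran from 9.22, in replicate 4, to 10.81 with a median of 10.63. Neither group overlapped control. In Wt1-null replicates 1 to 5 Tars was at 11.51, 10.89, 11.11, 11.07 and 10.60, a difference of -0.44 (adjusted p = 0.526), with replicate 1 inside the control range. The difference in oncogene arrays was -0.98 ± 0.29 (limma, adjusted p = 0.0796), and Tars fell by 1.18 ± 0.27 in double arrays (adjusted p = 0.0118). It was still called without double replicate 4. Aars, by contrast, was highest of its group in oncogene replicate 4 and double replicate 4.

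Nars, for asparagine, was at 12.99, 12.88, 12.63, 12.45 and 12.58 in control arrays and between 11.22 and 12.25 (median 11.999) in double arrays, without overlap. It fell by 0.82 ± 0.20 in double arrays (limma, adjusted p = 0.0164), a call lost without control replicate 2 (adjusted p = 0.0504). In oncogene replicates 1, 3, 4, 5 and 6 Nars was at 12.29, 12.08, 11.44, 12.44 and 12.32, all below the lowest control array, and the difference of -0.59 was not called (adjusted p = 0.166). Asparagine is made by Asns, described with the synthesis enzymes.

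Yars and Gars, for tyrosine and glycine, overlapped control in double replicate 4. Yars fell by 0.83 ± 0.20 in double arrays (adjusted p = 0.0157), from 10.41 to 10.63 in control to 9.36 to 10.56 (median 9.59) in double. In oncogene replicates 1, 3, 4, 5 and 6 Yars was at 9.55, 9.77, 10.29, 9.76 and 9.52, and in Wt1-null replicates 1 to 5 at 10.37, 9.37, 10.03, 10.04 and 9.56. Neither set overlapped control, and the differences of -0.77 and -0.68 were not called (adjusted p = 0.0616 and 0.232). Gars was at 12.70 to 13.13 in control and 11.66 to 12.84 in double arrays and fell by 0.71 ± 0.20 (adjusted p = 0.0424). In oncogene replicates 1, 3, 4, 5 and 6 Gars was at 12.08, 12.27, 12.54, 11.81 and 11.73 and the difference of -0.78 was not called (adjusted p = 0.0702), and in Wt1-null replicates 1 to 5 it was at 13.05, 12.0004, 12.24, 12.18 and 11.82. Wt1-null replicate 1 was again within the control range. The Gars call in double arrays did not hold when any 1 of 13 of the 22 arrays was left out, with an adjusted p of up to 0.118 without control replicate 2. The arrays concerned were all 5 control arrays, oncogene replicate 1, Wt1-null replicates 3 and 4, and double replicates 2, 3, 5, 6 and 7.

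**Figure D3:**
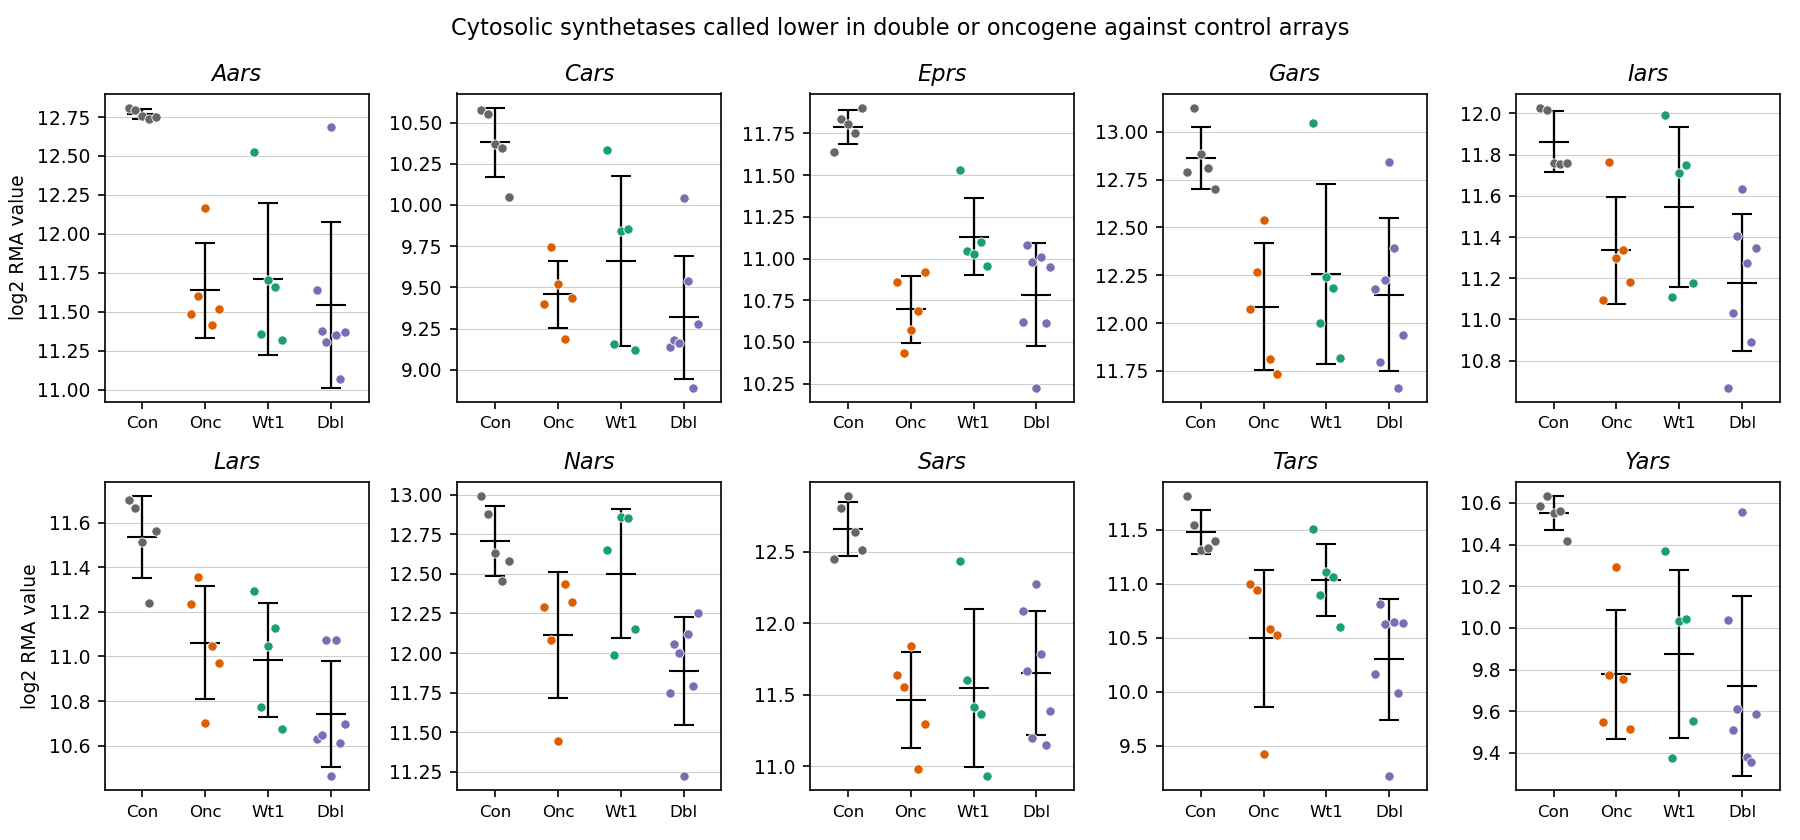
Log2 level of the 10 called cytosolic synthetases in each array of control (Con), oncogene (Onc), Wt1-null (Wt1) and double (Dbl) MEFs; points are arrays, the bar is the group mean and whiskers are 1 SD, with a separate vertical scale per gene. The control mean is the highest group mean in every panel, and in the Aars panel 1 oncogene array (12.17) and 1 double array (12.68) stand above the rest of their groups.

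Other probe sets of the called genes moved the same way where they were bright. The second Aars probe set differed by -1.23 in oncogene and -1.35 in double arrays, the second Sars probe set by -1.31 and -1.22 and the second Nars probe set by -0.82 and -0.89. The second Iars probe set differed by -0.53 and -0.63. Eprs had 2 more bright probe sets, at -1.19 and -1.20 in oncogene and -1.14 and -1.19 in double arrays, and a dim one at -0.28 and -0.32. The dimmer Cars probe set, at the 58.2nd percentile of all probe sets against the 84.7th for the one used, differed by only -0.11 and -0.21. With the mean of both, Cars differed by -0.52 in oncogene against control and was not called (adjusted p = 0.121), and it was still called in double against control. Gars, Lars, Tars and Yars had 1 probe set each.

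All 10 called members belong to a list of 12 cytosolic synthetases reported as targets of the amino acid response, which also holds Mars1 and Wars. This list covers 12 of the 19 cytosolic members and was chosen with earlier results of these data known. Its overlap with the calls is therefore a description and not separate support. The median difference over these 12 was -0.77 in oncogene, -0.63 in Wt1-null and -0.83 in double arrays, all 12 lying below control each time. Over the other 7 cytosolic members (Farsa, Farsb, Hars, Kars, Qars, Rars and Vars) it was -0.09, -0.27 and -0.24, and 0 of them were called. Farsa and Farsb, the subunits of the phenylalanine enzyme, differed by -0.26 and -0.20 in oncogene and -0.31 and -0.28 in double arrays. Hars, for histidine, differed by -0.13 to 0.15 in the 3 comparisons. Vars, for valine, had its highest levels in oncogene replicate 4 (11.66) and double replicate 4 (12.06), against 10.64 to 10.84 in control arrays. Wars, for tryptophan, differed by -0.30, -0.41 and -0.31. Within each array, the mean of the 12 minus the mean of the other 7 was -0.68 ± 0.16 (SD, n = 5) in oncogene and -0.70 ± 0.12 (SD, n = 7) in double arrays. In Wt1-null arrays it was -0.44 ± 0.23 (SD, n = 5), with a range of -0.59 to -0.03. The highest of these, replicate 1, lay within the control range of -0.10 to 0.11.

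The 2 structural classes of synthetases differ in the fold of their catalytic domain. Apart from Eprs, which holds a domain of each class, 1 of 9 class I and 2 of 9 class II cytosolic members were called in oncogene against control arrays. In double against control arrays the counts were 4 and 5. The median differences in double arrays were -0.67 for class I and -0.71 for class II. For the mitochondrial members they were -0.03 over 9 class I and -0.06 over 7 class II members.

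With arrays weighted alike and all groups in 1 model, limma called none of the 16 mitochondrial members in any comparison. With array weights it called 5 of them in oncogene, 14 in Wt1-null and 8 in double against control. Of all genes 24.3%, 33.1% and 33.2% were called with those weights. Some of the 16 were called in Wt1-null or double arrays under other settings given in the closing part. In oncogene against control arrays none had an unadjusted p below 0.05, against 15% of all genes, and in double against control 1 did, Ears2, against 20.1% of all genes (-0.40 ± 0.16, limma adjusted p = 0.148). Ears2, the mitochondrial glutamate enzyme, was at 7.34 to 7.67 in control and 6.76 to 7.65 in double arrays, so the groups overlapped. Cars2, for cysteine, was at 8.29, 8.38, 8.57, 8.25 and 8.24 in control and at 7.85, 7.95, 7.66, 7.70 and 7.76 in Wt1-null replicates 1 to 5, with no overlap. In Wt1-null arrays Cars2 differed by -0.56 ± 0.18 (adjusted p = 0.232) and Ears2 by -0.50 ± 0.17 (adjusted p = 0.257). Fars2, Sars2 and Lars2, for phenylalanine, serine and leucine, differed by -0.57, -0.52 and -0.32 there. The 4 members above control in Wt1-null arrays were Iars2, Mars2, Nars2 and Yars2, at 0.21 to 0.33, none called. Across the 3 comparisons mitochondrial differences ran from -0.57 to 0.33 and cytosolic ones from -1.23 to 0.16. In Pars2, the proline enzyme, oncogene replicate 4 and double replicate 4 were both at 9.09, against 8.05 to 8.32 in control arrays.

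Of 10 partner genes of mitochondrial translation, such as the formyltransferase Mtfmt and the elongation factor Tufm, 0 were called in any of the 3 comparisons with control. Their medians were -0.07 (oncogene), -0.12 (Wt1-null) and -0.03 (double). At an unadjusted p below 0.05 (limma) there were 0 partner genes in oncogene arrays, 1 higher and 1 lower in Wt1-null and 2 lower in double arrays. Among the 16 mitochondrial synthetases the counts were 0, 5 and 1, against 15%, 12.7% and 20.1% of all genes.

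Double arrays carry the oncogene and the Wt1 deletion together, so they were also compared with each single alteration, where all groups were labelled as Cre-infected or null. In double against oncogene arrays 0 of the 35 members were called by limma, where 0% of all genes were, and 1 member (Lars, -0.32 ± 0.14, adjusted p = 1) had an unadjusted p below 0.05, against 3.09% of all genes. The median difference was -0.08 over cytosolic and -0.03 over mitochondrial members. Intervals were wide: that of Aars ran from -0.57 to 0.38 and that of Tars from -0.75 to 0.36. Some oncogene and double arrays of the same replicate number resembled each other, and the model did not pair them.

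In double against Wt1-null arrays 0 members were called, where 0.0824% of all genes were, and 9 had an unadjusted p below 0.05, against 14.8% of all genes. Of the 9, 6 were lower and 3 higher. Nars had the smallest p, with a difference of -0.62 ± 0.20 (limma, adjusted p = 0.158). In Wt1-null replicates 1 to 5 it was at 12.65, 11.99, 12.86, 12.86 and 12.15, so replicates 2 and 5 lay within the double range of 11.22 to 12.25. Without Wt1-null replicate 2, which resembles double replicate 2, the Nars difference was -0.74 and was called (limma, adjusted p = 0.0355). It was then the only member called, where 5.08% of all genes were called. Tars differed by -0.74 ± 0.27 (adjusted p = 0.204) and Mars2, the mitochondrial methionine enzyme, by -0.42 ± 0.16 (adjusted p = 0.222). Double and Wt1-null arrays did not overlap for Lars2 and Vars2, both higher in double, where 0.676% of all genes were higher without overlap.

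The interaction compares the double difference from control with the sum of the oncogene and Wt1-null differences. The labels give the GFP virus for control arrays alone and name no virus for Wt1-null replicates 3 to 5. A difference shared by the other 3 groups enters the interaction with its sign reversed. This cannot be told apart from an effect of combining the alterations. No member was called, where 0.011% of all genes were. At an unadjusted p below 0.05 there were 8 members, against 8.55% of all genes, all 8 above 0, against 5.75% of all genes, which means a double difference less negative than that sum. Sars had an interaction of 1.29 ± 0.33 (limma, adjusted p = 0.557), Aars 0.97 ± 0.34 (adjusted p = 0.579) and Eprs 0.75 ± 0.20 (adjusted p = 0.579). For Sars the single differences of -1.19 and -1.11 stand beside -1.01 in double arrays. The median interaction was 0.36 over cytosolic and 0.22 over mitochondrial members, against 0.06 over all genes. All 3 control comparisons and the interaction share the 5 control arrays.

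Genes around the synthetases were read from lists of the amino acid response. Among 14 enzymes of amino acid and one-carbon synthesis 7 were called lower in oncogene, 4 in Wt1-null and 11 in double arrays, and 0 higher, with medians of -1.27, -1.003 and -1.43. Of all 18193 genes, 131, 13 and 445 were called lower in these comparisons with control. Asns, which makes the asparagine that Nars loads, was at 12.66, 13.04, 12.81, 12.69 and 12.54 in control and 11.02, 11.52, 11.56, 10.82 and 10.44 in oncogene replicates 1, 3, 4, 5 and 6. Wt1-null replicates 1 to 5 were at 12.75, 10.83, 11.67, 11.73 and 10.18, and double arrays at 10.18 to 12.10 with a median of 10.999. Wt1-null replicate 1 alone lay within the control range. Asns fell by 1.68 ± 0.37 in oncogene (limma, adjusted p = 0.0205) and 1.75 ± 0.34 in double arrays (adjusted p = 0.00472). Aldh1l2 and Mthfd2, of mitochondrial folate metabolism, fell in oncogene arrays (-2.53 and -1.48) and in double arrays (-3.34 and -2.03). Chac1, a glutathione-degrading enzyme on the same list, fell in all 3 groups (-2.65 in oncogene, -2.32 in Wt1-null, -2.70 in double).

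Among 10 amino acid transporters 5, 2 and 6 were called lower in the same 3 comparisons and 0 higher, beside 131, 13 and 445 of all 18193 genes called lower. Slc7a5, the large neutral amino acid carrier, fell by 1.47 in oncogene and 1.75 in double arrays (limma, adjusted p = 0.0105 and 0.000926). Slc6a9, a glycine carrier, fell in each of the 3 groups (-1.25 in oncogene, -1.26 in both others).

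Among 13 genes of amino acid sensing 4, 1 and 5 were called lower and 0 higher, beside 131, 13 and 445 of all 18193 genes called lower. Atf4 differed by -0.86 ± 0.29 in oncogene and -0.44 in Wt1-null arrays (adjusted p = 0.135 and 0.539) and fell by 1.05 ± 0.27 in double arrays (limma, adjusted p = 0.0227). It was lowest in oncogene replicate 4 (10.13) and double replicate 4 (10.92). Trib3, an ATF4 target, was at 10.47 to 11.19 in control, 6.298 to 7.68 in oncogene, 6.68 to 9.56 in Wt1-null and 6.95 to 8.06 in double arrays. It fell in all 3 comparisons (-3.74, -3.22 and -3.50), and its interaction of 3.46 ± 0.53 was called (adjusted p = 0.0167).

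Among 7 other tRNA-handling genes 0, 0 and 2 were called, both lower in double arrays: Pstk, the kinase on the route to selenocysteine tRNA (-0.68 ± 0.16, limma adjusted p = 0.0166), and Tarsl2, a threonyl-tRNA synthetase-like gene (-0.65 ± 0.19, adjusted p = 0.0491). Of all 18193 genes, 445 were called lower in double against control arrays. None of 5 elongation factors was called, with medians of -0.18, -0.09 and -0.13. A list of mitosis genes was read as a measure of dividing cells. Of 19 such genes 0 were called, but in double arrays all 19 lay below control with a median of -0.81, against medians of 0.07 in oncogene and 0.06 in Wt1-null arrays. The mean of this list relative to control was 0.11 ± 0.52 (SD, n = 5) in oncogene arrays, in which the cytosolic synthetase mean was -0.54 ± 0.14, and -0.79 ± 0.66 (SD, n = 7) in double arrays. The part of the mitosis genes' level in the double results was not tested.

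**Figure D4:**
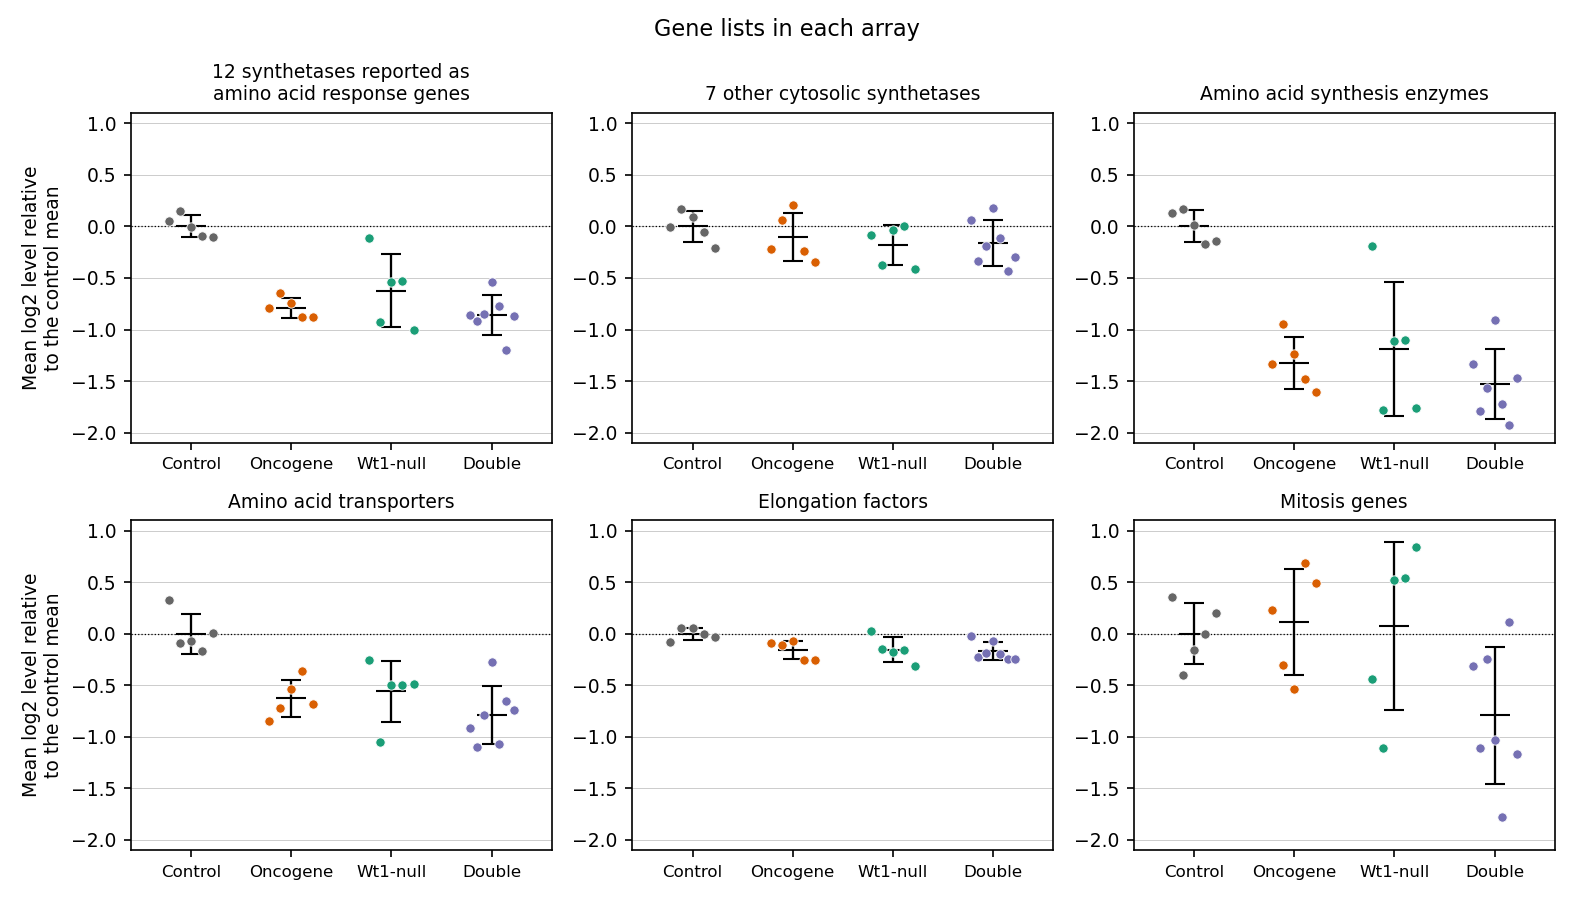
Mean log2 level relative to control of 6 gene lists in each array: the 12 synthetases reported as amino acid response genes, the 7 other cytosolic ones, synthesis enzymes, amino acid transporters, elongation factors and mitosis genes; points are arrays, the bar is the group mean and whiskers are 1 SD. The 12 reported synthetases lie at -0.65 or below in every oncogene array, while the 7 others spread from -0.35 to 0.21 there.

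The arrays fall into 3 sets of accession numbers, which the labels do not call batches. Within the set that holds 4 control, 4 oncogene and 7 double arrays, 2 members were called in oncogene against control (Eprs and Sars) and 7 in double against control (Aars, Cars, Eprs, Iars, Lars, Sars and Yars), all lower, where 1.7% and 4.37% of all genes were called. The cytosolic medians there were -0.48 and -0.71 and the mitochondrial ones 0.01 and -0.08. The set of 3 Wt1-null arrays holds 1 control array, too few for a useful test, and the medians there were -0.54 and -0.20.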

How the data were processed

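RNA from 22 MEF samples was hybridised to an Affymetrix mouse expression array. The deposited log2 values were made by the authors with the RMA method in Affymetrix Expression Console, per the submitters' processing notes; the version is not given in the sources used here. Deposited log2 values ran from 3.29 to 15.14 with array medians of 6.23 to 6.33. RMA puts all arrays on 1 distribution, so a shift of total RNA per cell is not seen. Precision is limited by how many arrays each group has.

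Of 45101 probe sets, 64 controls were left out, 34945 had 1 gene symbol in the platform annotation, 932 several and 9160 none. Each of 18193 genes was read from its probe set with the highest mean; 23 of the 35 members had several probe sets and 12 had 1. All 4 groups, by title, entered 1 model in limma 3.58.1 (R 4.3.3), with no covariate and Benjamini-Hochberg adjustment over all genes. Called means an adjusted p below 0.05, and intervals are 95%. The script was tested on simulated data.

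Values by array are given for members called in any comparison and for the 3 smallest p-values of each comparison, 12 at most; other list genes named are the called ones with the smallest p, up to 4 a list, with Atf4, Trib3 and Asns always. Mars2 and Pars2 also fell under this rule, but Mars2 is given as differences only and Pars2 for some arrays only. Vars, Mars1, Cars2 and Ears2 lie outside the rule and were given values after these were seen. The members and lists were chosen with earlier results of these data known. The replicate numbers in the labels did not pair the arrays throughout: of 28 same-numbered pairs, 13 had deviations correlated above 0.1 (range -0.47 to 0.77). Between oncogene and double arrays the correlation was 0.15, 0.18, 0.77, -0.14 and 0.62 for replicates 1, 3, 4, 5 and 6. A shared origin of same-numbered arrays was not tested, and the model took them as separate. Alternatives were other probe set rules, scalings, weights, blocks and left-out arrays. The oncogene is not reported here by name.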

Additional observations from a re-analysis of the deposited data

Results flagged for a closer look

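Within-group gaps were examined in 60 groups of array values, and chance sets an array apart in about 1 in 20 groups. In 4 of them the highest array stood apart from the rest. Aars was at 12.17 in oncogene replicate 4, where the next highest array was at 11.60. Aars was at 12.68 in double replicate 4, where the next was at 11.64. Pars2 was at 9.09 in oncogene replicate 4, where the next was at 8.24. Eprs was at 11.53 in Wt1-null replicate 1, where the next was at 11.10.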

How the results depend on the processing

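The cytosolic and mitochondrial medians moved by less than 1 SD between arrays under every alternative run. Apart from single left-out arrays, the cytosolic median was -0.53 to -0.42 in oncogene, -0.54 to -0.33 in Wt1-null and -0.75 to -0.59 in double against control. None of these changed sign. The mitochondrial median of oncogene against control, -0.05 in the main fit, was 0.01 within the third set of accession numbers. That of double against oncogene was -0.03 in the main fit and 0.02 with the replicate number as a block. Counts of members called moved more. With array weights, which gave double replicate 4 a weight of 0.117, limma called 16 members in oncogene, 25 in Wt1-null and 24 in double against control, 11 between double and Wt1-null and 8 for the interaction, with 4417, 6016, 6036, 3501 and 2748 of 18193 genes called. Of these members 5, 14, 8, 4 and 3 were mitochondrial, and 5 of the Wt1-null and 1 of the double against control calls were higher than control. Fitting only the groups compared gave 7 in oncogene and 9 in Wt1-null against control, 4 of the 9 mitochondrial (Cars2, Ears2, Fars2 and Sars2), with 770 and 599 of the 18193 genes called. Within the third set of accession numbers the oncogene count was 2. Without oncogene 4 and double 4 it was 8 and the Wt1-null count 4. Wt1-null 2 was then left out as well, a choice made after seeing the data. The oncogene, Wt1-null and double against Wt1-null counts were then 8, 1 and 3, with 4.95%, 0.258% and 8.43% of all genes called. The replicate number was also used as a block, a pairing that the data bore out for some arrays only. The oncogene count was then 3 and the double count 9, with 1.69% and 6.24% of all genes called. Leaving out 1 array at a time gave 2 to 8 members in oncogene, 0 to 3 in Wt1-null and 7 to 12 in double against control. It gave 0 to 1 in double against Wt1-null and 0 in both other comparisons. Of all genes, 0.764% to 3.75% were called in oncogene, 0.011% to 0.665% in Wt1-null and 3.12% to 9.5% in double against control. In double against Wt1-null the share of all genes called ran from 0% to 5.08%. The cause of these moves was not tested. Apart from single left-out arrays, the largest adjusted p (limma) of a called member over its alternatives in double against control was 0.00307 for Eprs, 0.0105 for Lars, 0.0128 for Aars, 0.0168 for Cars, 0.026 for Sars, 0.0402 for Yars, 0.0446 for Iars, 0.0516 for Nars, 0.0562 for Tars and 0.0928 for Gars. In oncogene against control it was 0.00667 for Eprs, 0.0323 for Sars, 0.0609 for Aars and 0.121 for Cars. The cytosolic median of double against oncogene ranged from -0.14 to 0.04 under left-out arrays, so its sign is not settled. The within-set comparisons of double with Wt1-null arrays and the interaction were not run, since no set holds all their groups.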
